A study of Homo sapiens with 18 samples.

Results

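The 10 genes described here encode chaperones and ATP-dependent proteases that keep mitochondrial proteins folded or remove them: HSPD1, HSPE1, HSPA9 and TRAP1 among the chaperones, and LONP1, CLPP, CLPX, AFG3L2, SPG7 and YME1L1 among the protease genes. They were chosen by gene symbol, and all 10 were found among the 59251 genes of the count tables and among the 21615 genes that held enough counts to be tested. RNA was sequenced in 18 libraries of HAP1 cells, a human line that carries nearly a single set of chromosomes, in 6 groups of 3. The unmodified parental line was measured without doxycycline and with 15 ng/mL doxycycline. A line with the genotype delSARS2+SARS2-1xFLAG (the SARS2 line below), in which SARS2, the mitochondrial seryl-transfer RNA synthetase, was deleted and a tagged copy was added, was measured with 15 ng/mL doxycycline and at 3, 6 and 9 days without it. All groups grew in IMDM medium, and cells were kept in doxycycline until its removal, per the labels. The time without doxycycline in the parental line, the promoter of the added copy, the kind of deletion and whether the SARS2 line is a single clone are not given in the sources available here. The labels do not tell whether the replicates were grown as separate cultures. P-values therefore measure the spread among these libraries only, and that spread may be technical.

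Proteins enter the mitochondrial matrix unfolded, pulled in by mitochondrial HSP70 (HSPA9), and many then fold inside the chamber formed by HSP60 (HSPD1) and its lid HSP10 (HSPE1). TRAP1 is the HSP90 of the matrix. LONP1 and the complex of the CLPX unfoldase with the CLPP peptidase degrade matrix proteins, AFG3L2 and SPG7 form the inner membrane protease that faces the matrix, and YME1L1 is its counterpart facing the intermembrane space. The name matrix chaperones and proteases thus holds for YME1L1 only in a wide sense. Genes of this set are known as targets of the mitochondrial unfolded protein response, in which proteins that cannot be folded or assembled in the organelle raise nuclear transcription of chaperones and proteases. A loss of mitochondrial protein synthesis is one of the conditions under which such responses have been studied, and doxycycline itself is an antibiotic that can act on mitochondrial ribosomes.

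HSPD1 and HSPE1 start head to head on chromosome 2 and were the pair whose levels followed each other most closely among the 10 genes, so the stretch between their starts is shown first. HSPD1 runs on the minus strand (chromosome 2, 197486584 to 197500274, GRCh38) and HSPE1 on the plus strand (chromosome 2, 197500379 to 197503449), which leaves 104 bases between the annotated starts. In RefSeq's sequence (build GRCh38.p14) 8 of the 10 genes had a promoter window, running from 250 bases before to 50 bases after a start that coincided with the start in the count tables. The windows were searched on both strands for GCGCNTGCGC, a word bound by NRF1, a regulator of nuclear genes for mitochondria. It was found in 5 of the 8 windows (LONP1, CLPX, HSPD1, HSPE1 and SPG7), against 6.28% of 27305 promoter windows. Some copies read GCGC, A, any base, GCGC, the same word on the opposite strand. The HSPD1 and HSPE1 windows hold the same copy, so the matches are 4 separate stretches plus a second copy in SPG7. The word is itself rich in G and C, and the 250 bases before the start were 65.6% to 77.2% G or C in the 8 windows, with 19 to 38 CpG. All promoter windows were counted whatever their base composition, and the part of composition in these matches was not tested. The E-box CACGTG was found in 3 windows (HSPA9, HSPD1 and HSPE1, the last 2 sharing 1 copy), against 7.43% of all windows. Capitals mark these 2 words, and each stretch is read 5′ to 3′ on the strand named.
HSPD1-HSPE1, between the starts, chr2:197500275-197500378, plus strand: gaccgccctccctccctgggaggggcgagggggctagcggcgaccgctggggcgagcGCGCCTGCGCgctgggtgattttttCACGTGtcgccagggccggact
LONP1, chr19:5720623-5720672, minus strand: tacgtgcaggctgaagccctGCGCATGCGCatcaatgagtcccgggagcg
CLPX, chr15:65185403-65185452, minus strand: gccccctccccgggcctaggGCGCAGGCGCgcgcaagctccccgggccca
SPG7, chr16:89508308-89508387, plus strand: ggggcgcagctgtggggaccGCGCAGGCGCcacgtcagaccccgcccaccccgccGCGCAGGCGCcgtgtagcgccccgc
HSPA9, chr5:138575402-138575440, minus strand: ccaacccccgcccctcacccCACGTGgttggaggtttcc
Words linked to stress responses were searched in the same way. The heat shock word TTCNNGAA was found in the HSPA9 window alone, against 7.84% of all windows. GAANNTTC, GAANNTTCNNGAA, TGATGNAA (a word of the C/EBP and ATF factors), TGCAAT and the endoplasmic reticulum stress element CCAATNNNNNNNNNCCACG had no match in the 8 windows, and each was present in 0.0806% to 8.38% of all windows. GAANNTTC and TTCNNGAA are both contained in GAANNTTCNNGAA. CCAAT was found in the CLPX window and in 35.7% of all windows. A match is a string of letters and not a measured binding site.

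**Figure D1:**
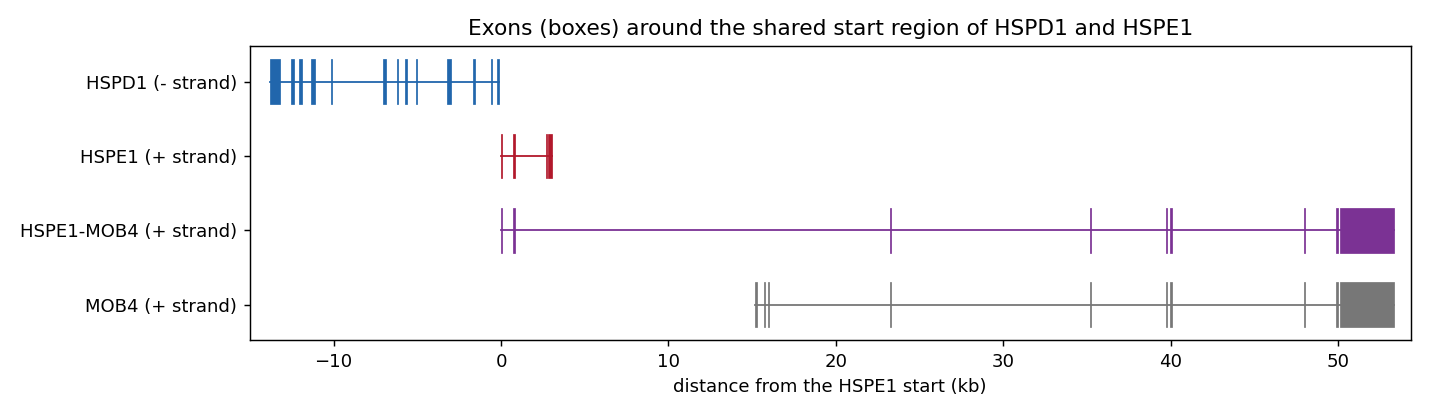
Map of the exons (boxes, with a thin outline so that the shortest remain visible) of HSPD1, HSPE1, the readthrough gene HSPE1-MOB4 and MOB4, by distance from the HSPE1 start in kb. HSPD1 and HSPE1 point away from each other across 104 bases, and the first exons of HSPE1-MOB4 coincide with those of HSPE1.

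The counts of HSPE1 need care for this reason. Of its 557 exonic bases, 226 (40.6%) are shared on the same strand with HSPE1-MOB4, which held 0 counts in every library, and MOB4, with 3671 of its 3941 exonic bases in the readthrough gene, held 0 to 12. HSPE1 held 1040 to 3133 counts per library, so its level is compared here between groups and not with other genes. Its 28 annotated pseudogene copies held between 8.12% and 17.1% as many counts as HSPE1, and the 22 copies of HSPD1 between 1.5% and 1.86% as many as HSPD1. No source used here tells how reads were split between a gene and its copies. HSPD1 shares 116 of its exonic bases on the same strand with SNORA105B, which held 0 counts. Exons of genes on the other strand covered 39.6% of the exonic bases of TRAP1 (DNASE1 and LOC124903630) and 23.9% of those of AFG3L2 (chiefly TUBB6), and the strand setting of the counting is not given either. The remaining members, LONP1 and CLPP on chromosome 19, CLPX on 15, HSPA9 on 5, YME1L1 on 10 and SPG7 on 16, shared 0 exonic bases on their own strand and at most 1.45% with the other.

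Libraries held 66850705 to 111123481 counts. Levels are given in CPM, a share of the counts of the library, with library sizes scaled by TMM, a method that sets the bulk of genes equal between libraries. SARS2 itself stood at 23.5 to 25.2 CPM in the 3 libraries of the SARS2 line with doxycycline, 30.5 to 32.4 in those labelled day 3, 23.2 to 25.8 at day 6 and 34.0 to 48.1 at day 9. Within this line its RNA was higher at day 3 (0.38 ± 0.10 on the log2 scale) and day 9 (0.79 ± 0.10) than with doxycycline (edgeR, adjusted p = 0.014 and 2.7e-06), and day 6 gave 0.03. The day 3 call was lost without replicate 1 of the doxycycline group or day 3 replicate 2 or 3 (0.36 to 0.38, adjusted p 0.052 to 0.068). The groups below are the libraries labelled with each day. The parental libraries held 43.2 to 46.2 CPM of SARS2 with doxycycline and 36.6 to 42.6 without, a log2 fold change of -0.15 that was not called (0.22). The 6 haematopoietic markers summed to 0.0216 to 0.517 CPM before day 9 and 0.463 to 0.84 at day 9, with GATA1 at 0 in every library, and CDH1, the epithelial cadherin, reached at most 0.0292 CPM. The 4 mesenchymal markers summed to 483 to 572 CPM in the parental line, 680 to 791 in the SARS2 line up to day 6 and 847 to 1128 at day 9, and the 4 epithelial markers to 26.8 to 47.8 before day 9 and 55.5 to 63.1 at day 9. Most of the epithelial sum was KRT18 (23.8 to 59.6 CPM), with EPCAM at most 1.96 and KRT8 at most 3.81. Most of the mesenchymal sum was VIM (401 to 1010 CPM). The epithelial markers did not move together: from day 6 to day 9, 1 was called higher and 2 lower. The part of all these markers in the results was not tested. Less RNA per cell and fewer cells of a kind cannot be told apart in such bulk libraries.

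Per kilobase of exon HSPD1 was the most abundant of the members in all 6 groups, at 474 to 752 CPM per kb (group means), followed by TRAP1 at 216 to 244 and HSPA9 at 156 to 240. SPG7 was the least abundant outside HSPE1, at 16.1 to 23.7 CPM per kb. LONP1 (73.0 to 123), AFG3L2 (48.5 to 64.6), YME1L1 (49.3 to 55.4), CLPX (36.6 to 48.8) and CLPP (26.7 to 42.1) lay between. The order of TRAP1 and HSPA9 was not fixed: at day 9 HSPA9 stood at 240 and TRAP1 at 218 CPM per kb, with overlapping libraries. AFG3L2 and YME1L1, and likewise CLPX and CLPP, changed places between groups. Between libraries HSPE1 varied most, with its highest CPM 3.12 times its lowest, followed by CLPP at 2.27 times, and TRAP1 varied least, at 1.22 times.

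**Figure D2:**
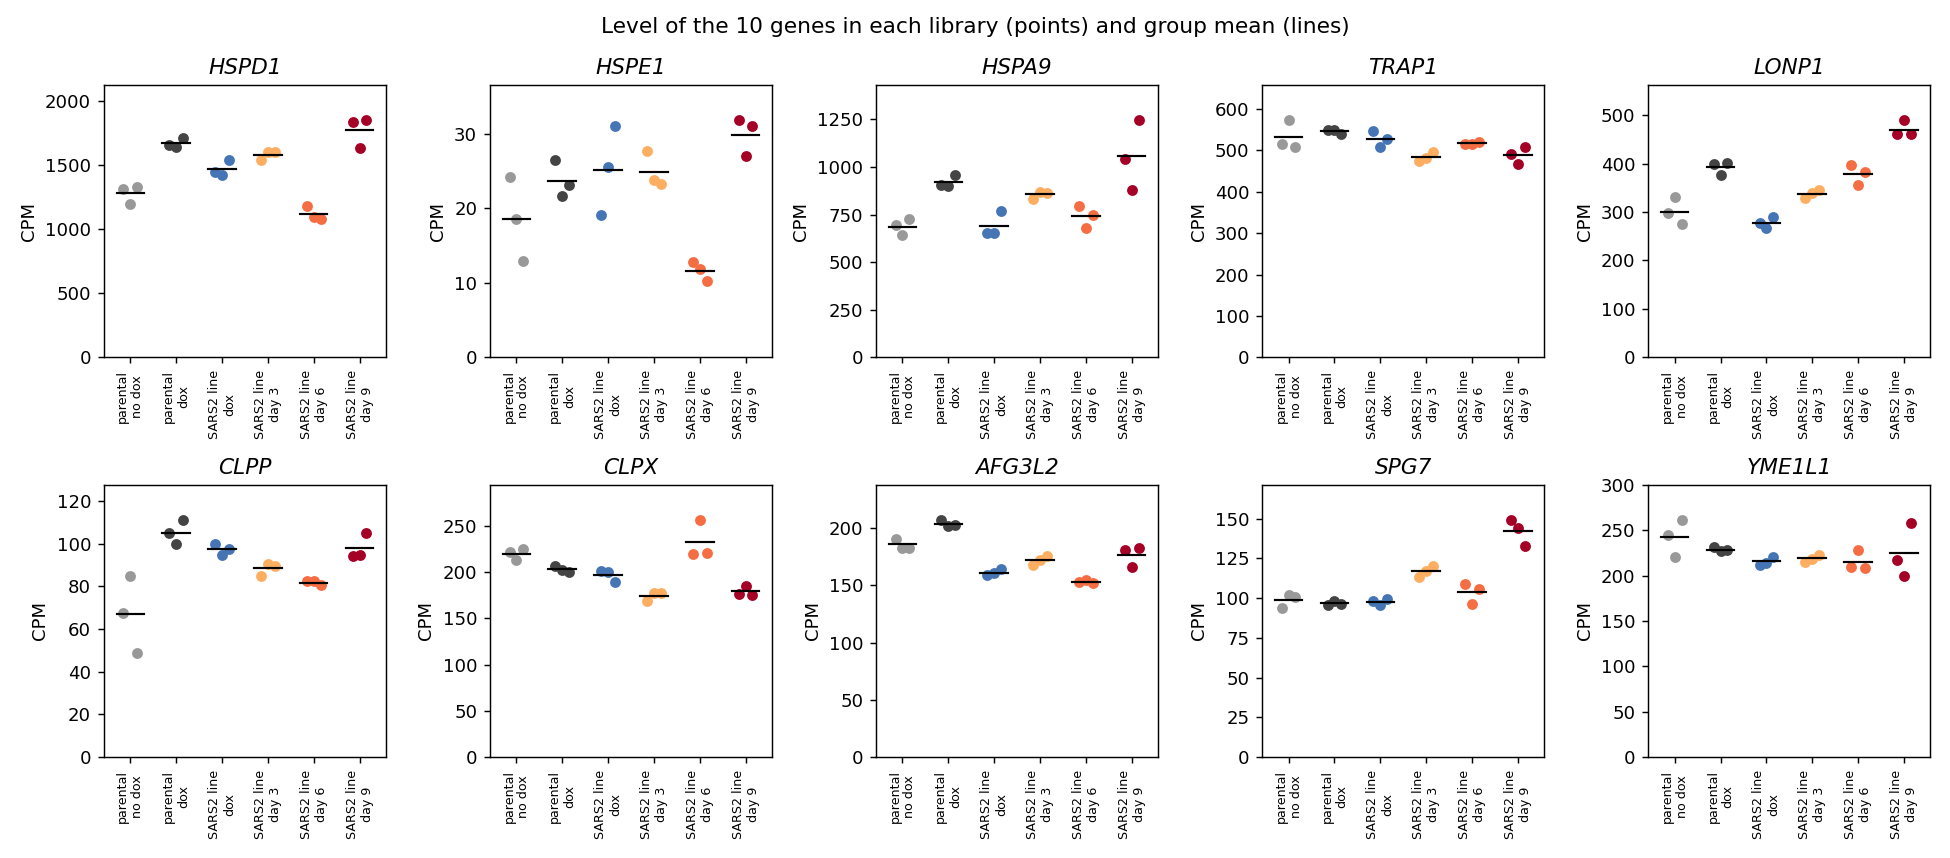
Level of each of the 10 genes in CPM (y axis, from 0) in the 18 libraries (points) with the mean of each group of 3 (lines). LONP1 climbs from 267 to 289 CPM in the SARS2 line with doxycycline to 461 to 489 at day 9, HSPD1 and HSPE1 dip at day 6, and TRAP1 and YME1L1 stay nearly level.

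In the SARS2 line without doxycycline LONP1 RNA was higher at all 3 days, while the chaperonin pair fell at day 6 and the other members were called at some days or at none. Called means that edgeR's quasi-likelihood test gave a Benjamini-Hochberg adjusted p under 0.05, over all genes tested. At day 3, 3 members were higher than with doxycycline (LONP1, HSPA9 and SPG7) and 0 were lower, where 13.4% of all genes tested were called. At day 6, 2 were higher (LONP1 and CLPX) and 2 lower (HSPD1 and HSPE1), with 28.1% of all genes called. At day 9, 5 were higher (LONP1, HSPA9, SPG7, HSPD1 and AFG3L2) and 0 lower, with 46.4% of all genes called. A count of 5 in 10 is thus near the background of that day. Scaled by library size alone, 4 were higher at day 9 and 2 lower: AFG3L2 was no longer called (0.07, edgeR adjusted p = 0.2), and CLPX (-0.20, 0.011) and TRAP1 (-0.17, 0.0088) were lower. The median log2 fold change of the 10 genes was 0.06, -0.02 and 0.19 at days 3, 6 and 9, beside 0.00, 0.01 and -0.01 over all genes. The 3 days share the same doxycycline libraries, so an extreme value in those libraries would enter all 3. With TMM scaling and all libraries TRAP1 and YME1L1 were called in 0 of the 10 comparisons by edgeR over all groups, and in 0 by DESeq2, with an unadjusted p under 0.05 in 1 for TRAP1 (day 3) and 0 for YME1L1. The day 3 count rests on single libraries: without day 3 replicate 3 it was 0, and without replicate 2 of the doxycycline group it was 1.

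**Figure D3:**
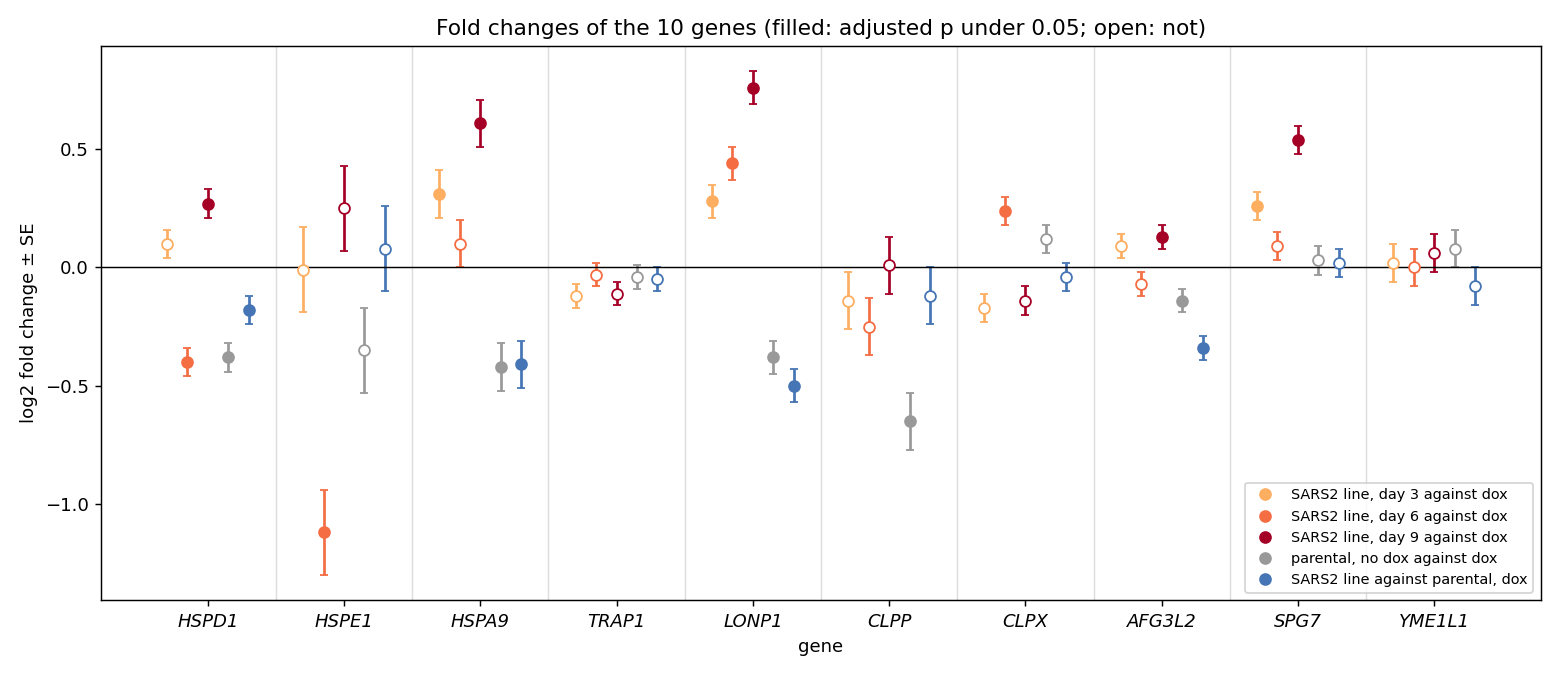
Log2 fold change ± SE (y axis) of the 10 genes in 5 comparisons (colours); filled points passed the test and open points did not. LONP1 lies above 0 at each day and below 0 in the parental and line comparisons, and HSPE1 at day 6 is the lowest point, at -1.12.

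HSPD1, the HSP60 chaperonin, stood at 1449, 1427 and 1540 CPM in the SARS2 line with doxycycline, 1538, 1605 and 1605 at day 3, 1185, 1093 and 1077 at day 6 and 1841, 1635 and 1850 at day 9. All day 6 libraries lay below, and all day 9 libraries above, every library with doxycycline. The log2 fold change against doxycycline was 0.10 ± 0.06 (SE) at day 3 with an adjusted p of 0.28, -0.40 ± 0.06 at day 6 (edgeR, adjusted p = 0.00013) and 0.27 ± 0.06 at day 9 (0.0014). HSPE1, the lid of the chaperonin, stood at 19.1, 25.5 and 31.0 CPM with doxycycline, 27.7, 23.8 and 23.3 at day 3, 12.8, 11.9 and 10.2 at day 6 and 31.8, 27.0 and 31.0 at day 9. It fell by 1.12 ± 0.18 on the log2 scale at day 6 (edgeR, adjusted p = 0.00018), with no overlap between the libraries. Day 9 and the doxycycline group overlapped, with a log2 fold change of 0.25 ± 0.18 and an adjusted p of 0.26. At day 6 HSPE1 RNA was thus at 0.461 and HSPD1 RNA at 0.76 of its level with doxycycline.

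HSPA9, which pulls proteins into the matrix and helps fold them, stood at 652, 654 and 771 CPM with doxycycline, 834, 870 and 863 at day 3, 797, 681 and 745 at day 6 and 1043, 878 and 1244 at day 9. The day 9 libraries were spread widely but all lay above the doxycycline group. It rose by 0.61 ± 0.10 on the log2 scale at day 9 (edgeR, adjusted p = 4.4e-05) and by 0.31 ± 0.10 at day 3 (0.043), and day 6 gave 0.10 ± 0.10 (0.49). The call at day 3 was lost when any of 5 of the 6 libraries was left out (0.26 to 0.33, adjusted p 0.07 to 0.17), the exception being replicate 3 of the doxycycline group. TRAP1, the matrix HSP90, ranged from 467 to 546 CPM over the 12 libraries of the SARS2 line. Its log2 fold changes were -0.12 ± 0.05, -0.03 ± 0.05 and -0.11 ± 0.05 at days 3, 6 and 9, with adjusted p from 0.11 to 0.74.

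LONP1, the protease that degrades damaged and unassembled matrix proteins, stood at 278, 267 and 289 CPM with doxycycline. It reached 328, 339 and 345 CPM at day 3, 398, 356 and 383 at day 6 and 461, 489 and 461 at day 9. Each group lay wholly above the one before it. The log2 fold changes against doxycycline were 0.28 ± 0.07 (edgeR, adjusted p = 0.0097), 0.44 ± 0.07 (8.2e-05) and 0.76 ± 0.07 (5.8e-08), so LONP1 RNA was 21.2%, 36.1% and 68.9% higher. The day 3 call was lost without replicate 2 of the doxycycline group (0.25, adjusted p = 0.058) or without day 3 replicate 3 (0.26, 0.054).

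CLPP and CLPX form a single protease. With all groups in the fit and the low-count filter, CLPX alone was called at day 6. CLPX, the unfoldase, stood at 201, 200 and 189 CPM with doxycycline, 169, 177 and 177 at day 3, 220, 256 and 221 at day 6 and 176, 185 and 175 at day 9. The day 6 libraries were the highest of the SARS2 line, and both other days lay below the doxycycline group. It rose by 0.24 ± 0.06 on the log2 scale at day 6 (edgeR, adjusted p = 0.0051), and days 3 and 9 gave -0.17 ± 0.06 (0.057) and -0.14 ± 0.06 (0.062). The day 6 value was 0.15 without day 6 replicate 2 (adjusted p = 0.05 after rounding, not called) and 0.15 (0.095) once the trend of fold change with gene span and transcript length was removed. CLPP, the peptidase, stood at 99.8, 94.5 and 97.5 CPM with doxycycline and at 84.9 to 90.7 at day 3, 80.5 to 82.3 at day 6 and 94.1 to 105 at day 9. Its libraries at days 3 and 6 lay below the doxycycline group, but the log2 fold changes of -0.14 ± 0.12 (0.49) and -0.25 ± 0.12 (0.13) did not pass the test. With only the compared groups in the fit both were called lower (-0.13 and -0.26, edgeR adjusted p = 0.037 and 0.003). With no low-count filter CLPP at day 6 was also called lower (-0.26, 0.012). A difference between CLPX and CLPP in being called thus depends on the fit.

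SPG7 (paraplegin), which pairs with AFG3L2, stood at 98.0, 95.7 and 99.6 CPM with doxycycline, 113, 117 and 120 at day 3, 109, 96.6 and 106 at day 6 and 149, 144 and 133 at day 9. It rose by 0.26 ± 0.06 on the log2 scale at day 3 (edgeR, adjusted p = 0.0089) and by 0.54 ± 0.06 at day 9 (8.9e-07), with an overlap and 0.09 ± 0.06 (0.30) at day 6. Without day 3 replicate 3 the day 3 value was 0.24 and no longer called (0.055). AFG3L2, which can also form the protease alone, stood at 159, 161 and 164 CPM with doxycycline, 168 to 176 at day 3, 152 to 155 at day 6 and 181, 166 and 183 at day 9. It rose by 0.13 ± 0.05 at day 9 (edgeR, adjusted p = 0.038), a call lost when any library but day 9 replicate 2 was left out (0.10 to 0.14, adjusted p 0.054 to 0.13). YME1L1 ranged from 199 to 258 CPM over the SARS2 line, with log2 fold changes of 0.02 ± 0.08, -0.00 ± 0.08 and 0.06 ± 0.08 and adjusted p from 0.57 to 0.97.

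CLPX, HSPD1, HSPE1, AFG3L2 and SPG7 were called in opposite directions in the step from day 3 to day 6 and in that from day 6 to day 9. From day 3 to day 6, LONP1 and CLPX were higher and HSPD1, HSPE1, AFG3L2 and SPG7 lower, a total of 6, where 42.7% of all genes were called. HSPD1 fell by 0.50 ± 0.06 and HSPE1 by 1.10 ± 0.18 on the log2 scale between these days, and CLPX rose by 0.41 ± 0.06 (edgeR, adjusted p = 4.4e-06, 7.6e-05 and 1.9e-05). The smaller calls there were unsteady: LONP1 (0.17 ± 0.07, adjusted p = 0.047) was lost without any 1 of 5 libraries, with 0.12 to 0.18 and adjusted p 0.072 to 0.23, the exception being day 6 replicate 2. AFG3L2 (-0.17) was lost without day 3 replicate 3, and SPG7 (-0.17) without day 3 replicate 2 or 3 or day 6 replicate 2. The count was 3 without day 3 replicate 3. Scaled by library size alone, 3 were higher and 2 lower, with AFG3L2 (-0.10, edgeR adjusted p = 0.064) and SPG7 (-0.10, 0.23) no longer called and TRAP1 higher (0.16, 0.014). From day 6 to day 9, 6 members were higher and CLPX lower, where 58.8% of all genes were called. HSPE1 rose by 1.37 ± 0.18, HSPD1 by 0.67 ± 0.06, HSPA9 by 0.51 ± 0.10, SPG7 by 0.45 ± 0.06, LONP1 by 0.31 ± 0.07 and AFG3L2 by 0.20 ± 0.05 on the log2 scale. CLPX fell by 0.38 ± 0.06 (edgeR, adjusted p = 1.9e-05). Both steps share the day 6 libraries.

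The parental line, which carries no added copy of SARS2, was also measured without doxycycline, and there 5 members were lower without the drug and 0 higher, with 39.4% of all genes called. LONP1 stood at 399, 376 and 402 CPM with doxycycline and 297, 332 and 275 without, a fall of 0.38 ± 0.07 on the log2 scale (edgeR, adjusted p = 0.00016). HSPA9 stood at 906, 902 and 958 CPM against 694, 643 and 725, a fall of 0.42 ± 0.10 (0.0018). HSPD1 stood at 1661, 1640 and 1714 CPM against 1313, 1197 and 1331, a fall of 0.38 ± 0.06 (8.2e-05). In these 3 genes every library without the drug lay below every library with it. CLPP stood at 105 ± 5.35 CPM (SD, n = 3) with doxycycline and at 67.4, 84.9 and 48.7 without, a fall of 0.65 ± 0.12 (0.00029) across libraries that differed widely among themselves. AFG3L2 fell by 0.14 ± 0.05 (0.037), a call lost without any 1 of 5 libraries (-0.12 to -0.14, adjusted p 0.058 to 0.11), parental replicate 1 without doxycycline being the exception. HSPE1 stood at 26.5, 21.6 and 23.2 CPM with and 24.2, 18.6 and 13.0 without the drug, a log2 fold change of -0.35 ± 0.18 (0.12). Without replicate 1 of the undosed group it was -0.60 and called (0.014). CLPX, SPG7, TRAP1 and YME1L1 gave 0.12, 0.03, -0.04 and 0.08 on the log2 scale, with adjusted p from 0.13 to 0.72.

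With doxycycline in both, the SARS2 line held less RNA of 4 members than the parental line and more of 0, with 19.3% of all genes called. LONP1 was lower by a log2 fold change of -0.50 ± 0.07 (edgeR, adjusted p = 3e-05), HSPA9 by -0.41 ± 0.10 (0.0052) and AFG3L2 by -0.34 ± 0.05 (9.4e-05), each with no overlap of libraries. AFG3L2 stood at 207, 202 and 203 CPM in the parental line against 159, 161 and 164. HSPD1 gave -0.18 ± 0.06 (0.044), which was lost without any 1 of 5 libraries (-0.16 to -0.20, adjusted p 0.076 to 0.15), replicate 3 of the SARS2 line being the exception. The line's starting level thus differed from that of the parental line: at day 9 LONP1, at 461 to 489 CPM, lay above the parental line with doxycycline (376 to 402), while at day 6 the 2 overlapped (356 to 398).

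The difference between cells without and with the drug was compared between the lines directly, as the log2 fold change in the SARS2 line minus that in the parental line. The labels give no time without the drug for the parental group, and the 3 differences share the parental libraries and the doxycycline libraries of the SARS2 line. At day 3, 6 members were higher and 1 lower by this measure (39.5% of all genes called), at day 6, 2 higher and 0 lower (12.6%), and at day 9, 6 higher and 1 lower (51.7%). LONP1 gave 0.66 ± 0.09, 0.83 ± 0.09 and 1.14 ± 0.09 on the log2 scale at days 3, 6 and 9 (edgeR, adjusted p = 2.4e-05, 4.8e-05 and 1.7e-08). HSPA9 gave 0.73 ± 0.14, 0.52 ± 0.14 and 1.03 ± 0.14 (0.00035, 0.018 and 4.1e-06). HSPD1 gave 0.49 ± 0.09 and 0.65 ± 0.09 at days 3 and 9 but -0.01 ± 0.09 at day 6 (0.95), where its fall in the SARS2 line (-0.40) was close in size to that in the parental line (-0.38). HSPE1 gave -0.76 ± 0.25 at day 6 with an adjusted p of 0.054 and 0.60 ± 0.25 at day 9 with 0.05. Neither was called with TMM scaling and the filter on low counts. DESeq2 called both (-0.75 and 0.62), as did edgeR with no filter (-0.76 and 0.62, adjusted p = 2.1e-05 and 0.00017), and the day 9 value was also called with median-of-ratios size factors (0.62, 0.047). Each passed in edgeR without some single libraries: at day 6 with -0.96 without parental replicate 3 without doxycycline and -0.93 without replicate 1 of the SARS2 line with doxycycline, and at day 9 with 0.67 to 0.86 without parental replicate 1 without or replicate 2 with doxycycline, replicate 3 of the SARS2 line with doxycycline or day 9 replicate 2.

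A shift between short and long genes moved with the same groups and is given beside these changes. At day 6 the median log2 fold change was -0.12 in genes spanning under 5 kb and 0.12 in those of 60 kb or more, in the parental line without the drug it was -0.08 and 0.13, and at day 9 it was 0.02 and -0.21. NEAT1, a nuclear noncoding RNA chosen here after its values were seen, was higher at day 6 (1.25 ± 0.18 on the log2 scale) and in parental cells off the drug (1.89 ± 0.19) and lower at day 9 (-1.24 ± 0.19; edgeR, adjusted p = 6.6e-05, 6.5e-07 and 2.6e-05). A link of NEAT1 to gene span or to the members was not tested. The members span 3.07 kb (HSPE1) to 59.5 kb (TRAP1). With the trend of fold change on span and transcript length removed, HSPE1 gave -1.02 and HSPD1 -0.42 at day 6, LONP1 0.37 at day 6 and 0.73 at day 9, and HSPA9 0.57 at day 9, all still called. Calls lost by this step were HSPA9 at day 3 (0.29, adjusted p = 0.091), CLPX at day 6 (0.15), LONP1 between days 3 and 6 (0.09), HSPD1 between the lines (-0.15) and CLPX in the difference between lines at days 3 (-0.16) and 9 (-0.13). Calls gained by it were HSPA9 between days 3 and 6 (-0.27, edgeR adjusted p = 0.049) and HSPE1 in the difference between lines at day 9 (0.81, 0.007).

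The balance between partners was followed as the log2 ratio of their per-length levels in each library. CLPX over CLPP was 0.09, 0.15 and 0.03 in the SARS2 line with doxycycline and 0.49, 0.71 and 0.53 at day 6, and it was 0.04, 0.09 and -0.08 in the parental line with and 0.79, 0.40 and 1.28 without the drug. In both comparisons the libraries did not overlap, whereas days 3 (0.04 to 0.07) and 9 (-0.19 to 0.04) lay at or near the doxycycline values. LONP1 over CLPP had a mean of 0.91 ± 0.05 (SD, n = 3) with doxycycline and 1.33 ± 0.03, 1.61 ± 0.09 and 1.66 ± 0.12 at days 3, 6 and 9. HSPA9 over HSPD1 was -1.99 ± 0.08 with doxycycline and -1.79 ± 0.01, -1.50 ± 0.08 and -1.66 ± 0.17 at the 3 days. HSPE1 over HSPD1 averaged -3.81 ± 0.32 with doxycycline and -4.51 ± 0.11 at day 6, a difference of -0.70, and its change is given without reading its level. SPG7 over AFG3L2 was -1.64 ± 0.03 with doxycycline and -1.24 ± 0.13 at day 9, and -2.00 ± 0.03 in the parental line with doxycycline. YME1L1 over AFG3L2 stayed between -0.31 and 0.09 in all libraries. Over 6 ratios and 5 comparisons, 22 of 30 had libraries that did not overlap. The 30 share genes and libraries, and the share among other pairs of genes was not computed. The count is therefore not read as a result about these partners. In a two-sided exact permutation test 3 libraries against 3 cannot give a p below 0.1, so no ratio could pass, and the smallest value adjusted over the 30 was 0.14.

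**Figure D4:**
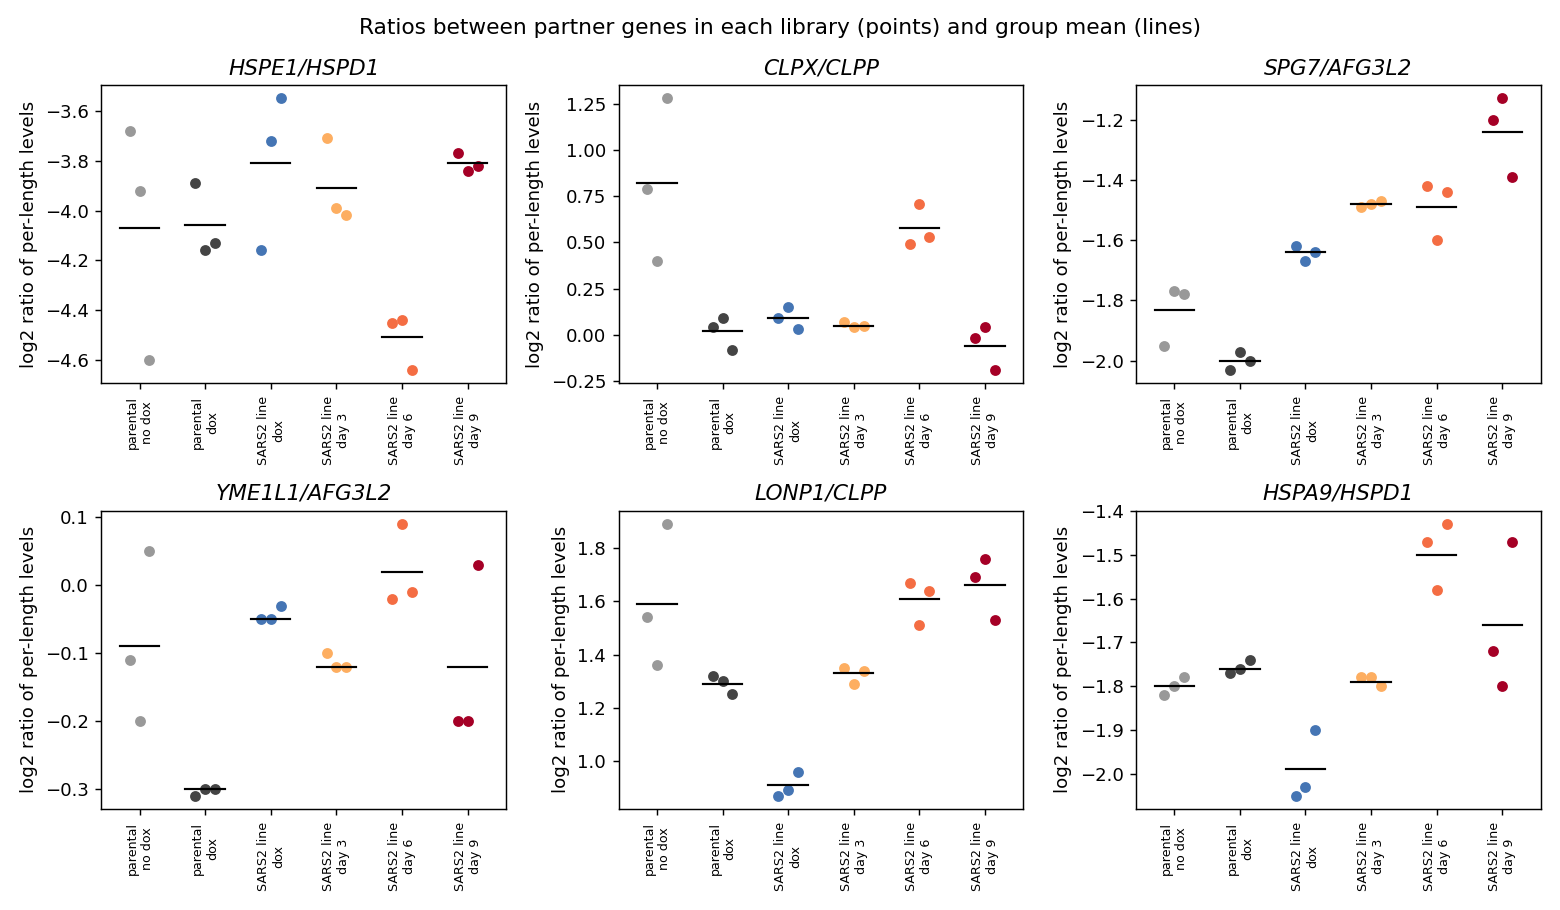
Log2 ratio of the per-length levels of partner genes (y axis) in each library (points) with group means (lines). CLPX over CLPP is highest in the parental line without doxycycline and at day 6, and LONP1 over CLPP lies at 0.87 to 0.96 in the SARS2 line with doxycycline and at 1.29 to 1.76 at days 3 to 9.

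Of 11 cofactors and partners of these chaperones and proteases, 9 were higher and 0 lower at day 9, where 46.4% of all genes were called, with a list median of 0.33 on the log2 scale. They included PHB1 (0.53 ± 0.08), which with PHB2 forms the membrane scaffold around the AFG3L2 protease, DNAJA3 (0.47 ± 0.08), the J-protein partner of HSPA9, HAX1 (0.35 ± 0.06) and CLPB (0.30 ± 0.06), a disaggregase (edgeR, adjusted p from 2.4e-05 to 0.00041). At day 6, 1 was higher and 5 lower (median -0.24), and 3 in all were called without replicate 3 of the doxycycline group or without day 6 replicate 3. GRPEL2, a nucleotide exchange factor of HSPA9, rose by 0.48 ± 0.07, and PHB1 (-0.53 ± 0.08) and STOML2 (-0.36 ± 0.06) fell, with edgeR adjusted p from 9.3e-05 to 0.00029. At day 3, 1 of 11 was called, DNAJA3 (0.25 ± 0.08, adjusted p = 0.038, lost without replicate 1 or 2 of the doxycycline group or day 3 replicate 2 or 3). In the parental line without the drug 1 was higher and 7 lower (median -0.29), and between the lines 0 were higher and 7 lower (median -0.26), among them PHB2 (-0.80 ± 0.09) in the former and DNAJA3 (-0.47 ± 0.08) in the latter. The 7 between the lines became 3 or 4 without any library but replicate 3 of the SARS2 line. Over all genes the medians of these 5 comparisons lay between -0.01 and 0.03. The share of all genes called was 28.1% at day 6, 13.4% at day 3, 39.4% in the parental line and 19.3% between the lines.

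A further list held 13 other mitochondrial proteases and peptidases. Of this list 38.5% were called at day 9, 30.8% at day 6 and 7.69% at day 3, against 46.4%, 28.1% and 13.4% of all genes. In the parental line the share was 46.2% and between the lines 15.4%, against 39.4% and 19.3% of all genes. The counts below are thus near or below the background. At day 9, 1 was higher (METAP1D, 0.64 ± 0.11) and 4 lower, among them XPNPEP3 (-0.61 ± 0.11) and LACTB (-0.42 ± 0.08), with a median of -0.05 (edgeR, adjusted p from 6.8e-05 to 0.00044). Without day 9 replicate 2, 4 were higher and 5 lower. IMMP2L, a subunit of the inner membrane peptidase, gave -0.81 ± 0.11 at day 9, but -0.29 and no call (0.1) with the span and length trend removed. At day 6, 0 were higher and 4 lower, among them MIPEP (-0.50 ± 0.08), which trims imported proteins, and OMA1 (-0.44 ± 0.09), the stress-activated protease of the inner membrane (edgeR, adjusted p = 0.00013 and 0.0012). At day 3, 0 were higher and 1, IMMP2L (-0.47 ± 0.11), was lower, a call lost without replicate 1 of the doxycycline group or day 3 replicate 2 or 3. In the parental line 1 was higher and 5 lower off the drug. Between the lines 1 was higher, IMMP2L (0.43 ± 0.11, lost without parental replicate 2), and 1 lower, MIPEP (-0.46 ± 0.08).

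Like HSPD1, TRiC subunits and cytosolic heat shock genes were lower at day 6 and lower in undosed parental cells. Of all genes, 13.4%, 28.1% and 46.4% were called at days 3, 6 and 9. The share was 39.4% in the parental line and 19.3% between the lines. Of 14 cytosolic heat shock genes, 0 were higher and 9 lower at day 6 (median -0.43), 8 higher and 1 lower at day 9 (median 0.36), and 0 higher and 14 lower in the parental line without doxycycline (median -0.59). HSP90AA1, the inducible cytosolic HSP90, gave -0.78 ± 0.09 (day 6), 0.56 ± 0.09 (day 9) and -0.79 ± 0.09 (parental line) (edgeR, adjusted p = 8.5e-06, 4.8e-05 and 3.3e-06). The day 6 count was 5 without replicate 3 of the doxycycline group or day 6 replicate 2. At day 3, 4 of these genes were higher and 0 lower, but 1 without replicate 1 or 2 of the doxycycline group or day 3 replicate 2 or 3. The 4 became 2 with the span and length trend removed. Between the lines 0 were higher and 5 lower, a count that was 2 or 3 without any library but replicate 3 of the SARS2 line. Of 8 subunits of the cytosolic chaperonin TRiC, all 8 were lower at day 6 (CCT3 by -0.50 ± 0.08 on the log2 scale), 6 were higher and 0 lower at day 9 (CCT3, 0.37 ± 0.08), and 7 were lower in the parental line without the drug. The 6 at day 9 became 3 with the span and length trend removed. Between the lines 3 were lower, but 0 without any library except replicate 3 of the SARS2 line, without which there were 5. At day 3, 0 were called by edgeR over all groups, 0 by DESeq2 and 0 at an unadjusted p under 0.05 in the former. With only the compared groups in the fit edgeR called 2 higher, where 6536 genes were called against 2889. Of 10 endoplasmic reticulum chaperones 2, 1 and 5 were higher at days 3, 6 and 9 and 0 lower, with HYOU1 at 0.68 ± 0.07 and CALR at 0.61 ± 0.08 at day 9. The day 3 count was 1 or 0 without any library of the comparison (0 without day 3 replicate 3). With the span and length trend removed, 0 were called at days 3 and 6, and 6 were higher at day 9. The day 6 count was 0 without replicate 3 of the doxycycline group, 2, both higher, without day 6 replicate 1 and 3, all lower, without day 6 replicate 2. In the parental line 1 was higher and 3 lower, 2 in all without any 1 of the libraries with doxycycline. With all libraries, the 40.0% of the list called there was also near the share over all genes. Between the lines 1 was lower, HYOU1 (-0.26 ± 0.07), lost without parental replicate 3 or SARS2 line replicate 2.

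**Figure D5:**
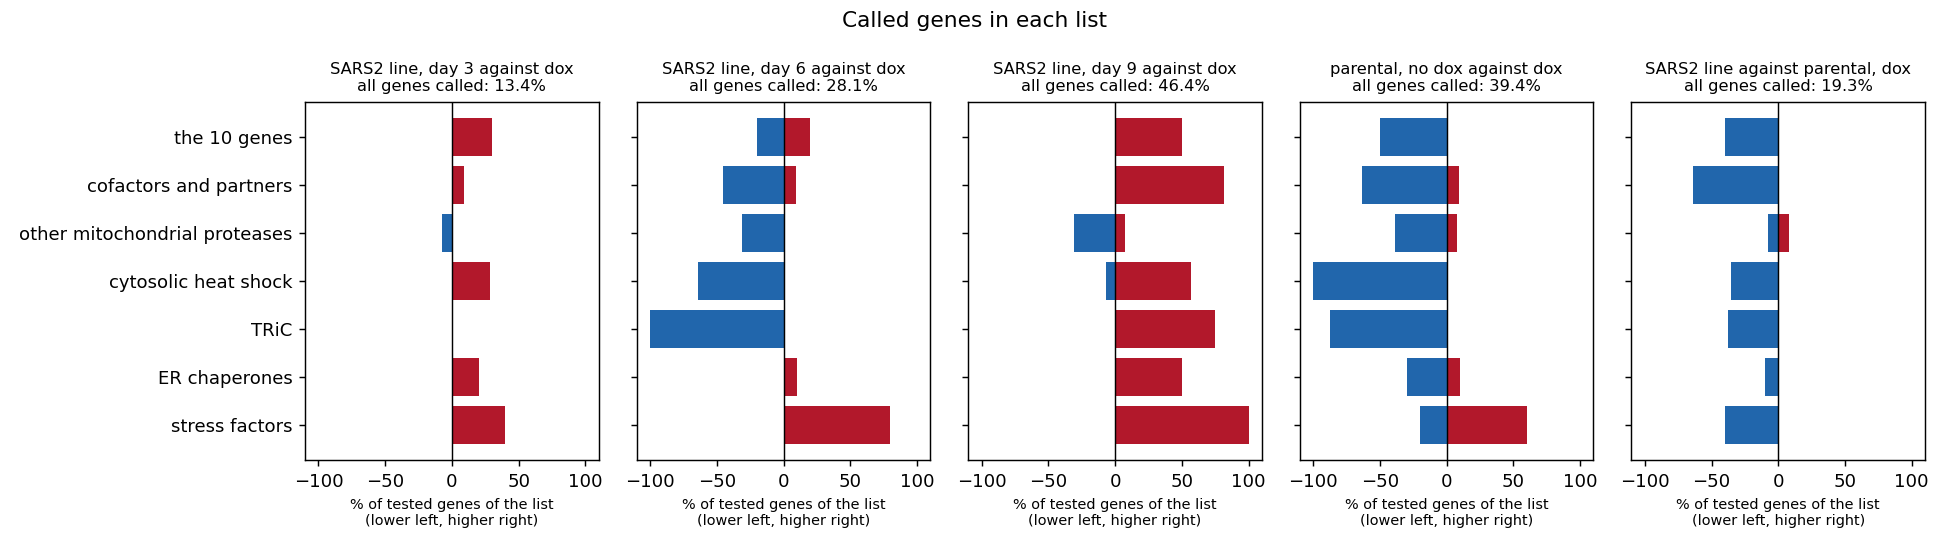
Share of the tested genes of each list (x axis, %) called higher (right, red) or lower (left, blue) in 5 comparisons, with the share of all genes called in each panel title. The TRiC subunits are all lower at day 6, and all 14 cytosolic heat shock genes are lower in the parental line without doxycycline.

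Of 5 transcription factors linked to mitochondrial stress responses (ATF4, ATF5, DDIT3, CEBPB and HSF1), 2 were higher at day 3, 4 at day 6 and 5 at day 9, with 0 lower. At these days 13.4%, 28.1% and 46.4% of all genes were called, with 39.4% in the parental line and 19.3% between the lines. The 2 at day 3 became 1 with the span and length trend removed. The 4 at day 6 became 2 without replicate 3 of the doxycycline group or day 6 replicate 2. CEBPB at day 6 (0.94, edgeR adjusted p = 0.038) was lost without any 1 of the 6 libraries (adjusted p 0.064 to 0.11). DESeq2 did not call it either (adjusted p = 0.057). ATF5, a factor known to drive mitochondrial chaperone and protease genes, gave 0.70 ± 0.12, 1.07 ± 0.12 and 1.48 ± 0.12 on the log2 scale at the 3 days (edgeR, adjusted p = 0.0013, 7.2e-06 and 3.3e-08), an order like that of LONP1. DDIT3 (CHOP) gave 1.43 ± 0.12 at day 6 and 1.01 ± 0.12 at day 9 (4.6e-07 and 2.5e-06). Off the drug, parental cells had 3 of the 5 higher, ATF5 (0.88 ± 0.12) and DDIT3 (1.22 ± 0.12) among them, and 1 lower, HSF1 (-0.33 ± 0.11), while LONP1, HSPA9 and HSPD1 fell. Of these 4 calls 2 were left without parental replicate 2 or 3 with doxycycline, and HSF1 moved to -0.54 without replicate 2 and to -0.16, not called, without replicate 3 of the undosed group. Without undosed replicate 3 ATF4 (0.11, edgeR adjusted p = 0.15) was not called either. With only the compared groups in the fit both ATF4 (0.14) and HSF1 (-0.36) lost their calls. Between the lines ATF5 (-1.03 ± 0.12) and ATF4 (-0.49 ± 0.06) were lower in the SARS2 line.

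Across the 18 libraries, which share 6 groups and are not independent, the levels of some members ran together and those of others ran opposite. As a description, Pearson's r of log2 CPM was 0.85 for HSPD1 and HSPE1, 0.77 for HSPA9 and HSPD1, 0.76 for LONP1 and HSPA9 and 0.67 for LONP1 and SPG7. CLPX ran opposite to HSPD1 (-0.80) and HSPE1 (-0.78). The genes outside the set most like HSPD1 were C1orf131 (r = 0.991), BCCIP (0.988) and HSP90AA1 (0.987). Those most like HSPE1 were RWDD3 (0.965), ATP5MC1 (0.953) and EEF1E1 (0.952), and those most like LONP1 were RHBDD2 (0.924), LOC728485 (0.915) and LRRC47 (0.906). The mean profile of the 10 genes was most like PPID (0.941), SELENOS (0.937) and IMP4 (0.932). The lists for HSPD1, HSPE1 and LONP1 had 0 genes in common.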

How the data were processed

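Gene-level read counts were deposited as whole numbers without normalization, per the file headers, from 151-bp paired-end libraries of 66850705 to 111123481 counts. GRCh38, featureCounts, HISAT2, cutadapt 2.3, Subread, SAMtools and DESeq2 appear in the submitters' processing notes, without their settings. Annotation release and strand setting: not given in the sources used here. Of the genes, 16 were broken over lines and were rejoined. There were 6 libraries present in both of 2 files, with identical values, and each was used once. Mitochondrially encoded genes (37) had 0 counts throughout.

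Counts were tested here with edgeR 4.0.16 (R 4.3.3): filterByExpr, TMM (factors 0.91 to 1.06), and a quasi-likelihood fit with 1 mean per group over 18 libraries (biological coefficient of variation 0.12). P-values were adjusted over 21615 genes by Benjamini-Hochberg and called under 0.05. The test was checked on simulated data, with a share to be recovered of genes changed by 1 on the log2 scale. That share was not reached over all tested genes, and was reached once the check was restricted, after that, to genes with a mean of at least 1 CPM. Smaller changes were simulated but not held to it, so the check does not cover changes of that size. SE is the error of a log2 fold change. Ratios used a pseudocount of 0.5 counts and exact permutation tests. The alternatives were DESeq2 1.42.0, median-of-ratios and library-size scaling, no filter, only the compared groups, a replicate block, removal of the span and length trend (splines with 5 degrees of freedom), and leaving out each library. Groups were taken from the labels.

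The members and lists were chosen with earlier results of these data known. All 10 members are named, from each list only genes among the 4 called with the smallest adjusted p in a comparison, and for each profile the 3 genes most correlated with it. NEAT1 was added after its values were seen.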

Additional observations from a re-analysis of the deposited data

Results flagged for a closer look

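The difference between cells without and with doxycycline was not the same in the SARS2 line and the parental line for 7 of the 10 genes at day 3, 2 at day 6 and 7 at day 9, by the test of the difference itself (edgeR, adjusted p under 0.05). Of all genes, 39.5%, 12.6% and 51.7% were called by this test at the 3 days. LONP1 differed at all 3 days, by 0.66, 0.83 and 1.14 on the log2 scale, and HSPA9 by 0.73, 0.52 and 1.03. At days 3 and 9 HSPD1 differed by 0.49 and 0.65, CLPP by 0.52 and 0.66, AFG3L2 by 0.23 and 0.27, SPG7 by 0.23 and 0.51, and CLPX by -0.29 and -0.25. The CLPP values contain the parental libraries without doxycycline, which ranged from 48.7 to 84.9 CPM: without replicate 3 of that group the day 3 difference was 0.33, and without parental replicate 3 with doxycycline it was 0.48 and not called (adjusted p = 0.051). At day 6 CLPP gave 0.40, not called, but 0.61 and called without parental replicate 2 without doxycycline. SPG7 at day 3 was lost without any single library but parental replicates 2 and 3 without doxycycline, replicate 3 of the SARS2 line with doxycycline and day 3 replicate 1, and CLPX at day 9 without replicate 2 of the SARS2 line with doxycycline (-0.23, edgeR adjusted p = 0.051). All 16 values rest on the same 6 parental libraries and, within the SARS2 line, the same 3 doxycycline libraries, and the time without doxycycline in the parental line is not given.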

How the results depend on the processing

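Among refits of the members' fold changes, 1372 kept their side of the threshold, 68 lost a call, 40 gained one and 0 of the called values reversed. The 1372 include values that were not called before or after the refit, so they do not measure how steady the calls were. AFG3L2 in the day 3 difference, for example, was not called with no low-count filter (0.23, edgeR adjusted p = 0.11). With only the compared groups in the fit, the members called at day 3 were 6, 3 in each direction (3 when all groups were fitted), and with no low-count filter those in the day 6 difference between lines were 4 (2 with it). Leaving out each library gave 0 to 3 members at day 3, 3 to 4 at day 6, 4 to 6 at day 9, 3 to 6 between days 3 and 6 and 7 to 7 between days 6 and 9. The range was 4 to 6 in the parental line, 3 to 4 between the lines, and 5 to 7, 2 to 3 and 6 to 8 in the differences. The number of partner ratios without overlap was 22 with and without a pseudocount. Over all genes, fitting only the compared groups called 6536 genes at day 3 against 2889 and 7336 between the lines against 4171. Leaving out 1 library lowered these counts by over 1.5 times at day 3 (lowest 1088; replicates 1 and 2 of the doxycycline group, day 3 replicates 2 and 3) and at day 6 (3834 from 6070; replicate 3 of the doxycycline group). The same held between the lines (lowest 2593; parental replicate 3, SARS2 line replicates 1 and 2) and in the day 6 difference (lowest 1625 from 2729; parental replicates 2 and 3 and SARS2 line replicate 2 with doxycycline, day 6 replicate 3). Of the calls at day 6, 3034 were higher and 3036 lower, but 64.3% were higher with library size alone and 32.7% with the trend removed. For day 6 against day 3 the share was 51.3% and 41.2% with the trend removed, in the parental line 53.3% and 40.7%, and for day 9 against day 6 it was 48.7% and 38.6% with library size alone. Library size alone moved the median of all genes from -0.02 to -0.15 for day 9 against day 6, where AFG3L2 (0.08) was then not called and TRAP1 (-0.21) was, and to -0.14 from -0.04 in the day 9 difference. Same-numbered replicates did not deviate together (45 pairs, r from -0.077 to 0.07, and 3 of 18 libraries correlated best with their own number). With a replicate block, LONP1 between days 3 and 6 (0.17, adjusted p = 0.063) and SPG7 in the day 3 difference (0.23, 0.055) were not called, and HSPA9 between days 3 and 6 was (-0.21, 0.042); no other call of a member changed, and 2674 genes were called at day 3. The cause of these changes was not tested.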
